A study of Mus musculus with 18 samples.

Results

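Granzymes and perforin are the killing proteins of cytotoxic lymphocytes, and their transcripts were followed here in T cells taken from mouse melanomas. The 10 genes are *Gzma*, *Gzmb*, *Gzmc*, *Gzmd*, *Gzme*, *Gzmf*, *Gzmg*, *Gzmk* and *Gzmm*, which encode granzymes, and *Prf1*, which encodes perforin. They were set as a list of gene names, 10 of the 37236 genes in the expression table, with earlier results of these data known. *Gzmn*, a further granzyme gene in that table, was not among them. The samples were CD3+ TILs (tumor-infiltrating lymphocytes) from B16-OVA tumors, a mouse melanoma cell line that carries ovalbumin as a model antigen. *Nr2f6*-/- mice lack the orphan nuclear receptor NR2F6 in the whole body, so that every cell of the host and not T cells alone is without it, and were compared with wild-type mice, both on the C57BL/6 strain. All mice received 500000 tumor cells s.c. and then, from d3 and repeatedly until harvest at d14, 0.5 mg i.p. of either the PD-L1 blocking antibody 10F.9G2 or the control antibody LTF-2, an IgG2b. The 4 groups were wild-type with IgG2b (n = 3), *Nr2f6*-/- with IgG2b (n = 3), wild-type with anti-PD-L1 (n = 6) and *Nr2f6*-/- with anti-PD-L1 (n = 6). Per the study's methods the mice were 8 to 12 weeks old when the tumor cells were injected. The study's figure legend for these data gives an n for tumor-bearing mice that is lower than 6 in both anti-PD-L1 groups. How many mice went into each sample is not stated, so p-values measure the spread between these samples.

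A cytotoxic T cell kills by releasing granules onto its target. Perforin inserts pores into the target membrane, and granzymes, a family of serine proteases, pass into the target and cut proteins there, which leads to cell death. Granzymes are made as inactive precursors, are trimmed by the protease cathepsin C and are stored on the proteoglycan serglycin until the granule is released. Granzyme B cuts after aspartate, like the caspases. Granzymes A and K cut after basic residues, granzyme M cuts after methionine and is best known from natural killer cells, and granzymes C to G are rodent relatives of granzyme B whose transcripts are known from strongly stimulated lymphocytes.

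Depth was similar in all samples, with 12473391 to 18609482 reads counted on genes per sample (median 16554699), of which 0.0779% to 0.212% fell on the 10 genes. Values are normalized counts, the reads divided by 1 size factor per sample. The limit set by 3 reads lay between 2.46 and 3.64 normalized counts, and it covers counting error only. Both CD4+ and CD8+ T cells were collected with beads and pooled before the sort for CD3, so every value is an average over both, and a difference in RNA per cell cannot be told apart from a difference in the share of cells that make it. *Nr2f6* itself had 0 reads in all 9 *Nr2f6*-/- samples and 20.2 to 201 normalized counts in the 9 wild-type samples, as the labels state. *Cd3e* lay between 7381 and 15541 in all samples. Its mean was 8635 in wild-type IgG2b, 9887 in *Nr2f6*-/- IgG2b, 11056 in wild-type anti-PD-L1 and 12562 in *Nr2f6*-/- anti-PD-L1 samples. In the same order, 5 T cell genes (*Cd3d*, *Cd3e*, *Cd3g*, *Cd247*, *Trac*) summed to 32420 to 44530, 43729 to 49465, 39651.5 to 57628 and 47215 to 56597.5. The part of T cell content in the differences below was not tested. Macrophage transcripts differed with treatment. The summed level of 7 macrophage markers (*Csf1r*, *Adgre1*, *Cd68*, *Lyz2*, *C1qa*, *C1qb*, *C1qc*) was 11588 to 14266 in wild-type IgG2b, 6649 to 10254 in *Nr2f6*-/- IgG2b, 1152 to 5608 in wild-type anti-PD-L1 and 815 to 2200 in *Nr2f6*-/- anti-PD-L1 samples, and none of the 7 was at 0 in a whole group. The libraries came in 2 sets by their running numbers. The first, of 12 libraries, took 3 samples from each group. The second, of 6, took the remaining 3 samples of either genotype with anti-PD-L1 and no IgG2b sample. The 5 melanoma genes summed to 2351 to 4481 normalized counts in wild-type IgG2b and 1144 to 2200 in *Nr2f6*-/- IgG2b samples. With anti-PD-L1 they summed to 2011 to 7107 in wild-type and 736 to 4106 in *Nr2f6*-/- samples. The 4 regulatory T cell genes summed to 4381 to 5964, 4394 to 6105, 4144 to 7107 and 3234 to 6684 in the same order of groups. Over all samples the 4 mast cell genes summed to 0 to 289 and the 4 B cell genes to 0 to 192. The part of these cells in the differences below was not tested.

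The 10 genes lie at 4 places in the genome (mm10, which is GRCm38; positions from GENCODE M21). *Prf1* (chr10:61297833-61304680, + strand) and *Gzmm* (chr10:79689020-79695261, + strand) stand alone on chromosome 10. *Gzma* (chr13:113093825-113100981) and *Gzmk* (chr13:113171608-113225908) are neighbours on the minus strand within 132 kb. The other 6 sit with *Gzmn* in a run of 7 granzyme genes over 145 kb on the minus strand of chromosome 14, in the order *Gzme* (chr14:56117626-56120625), *Gzmd* (chr14:56129556-56132608), *Gzmg* (chr14:56156582-56159579), *Gzmn*, *Gzmf* (chr14:56205263-56211417), *Gzmc* (chr14:56231441-56234656) and *Gzmb* (chr14:56258838-56262260). Reads from the 3′ kit fall at the ends of transcripts, and the primary position was kept for reads with several, so shared sequence there can move reads between genes. In the last 300 bases of the longest coding transcripts, *Gzmd* and *Gzmf* shared an identical run of 71 bases, *Gzmf* and *Gzmg* one of 72 and *Gzmd* and *Gzme* one of 49. *Gzmc* shared at most 10 bases with any of these 4. Of the 50-base stretches at these ends, 8.76% of those of *Gzmd* were also in *Gzmf* and 9.16% of those of *Gzmf* in *Gzmg*. For *Gzmd* in *Gzme* the share was 0%, and for *Gzme* in *Gzmd* 5.98%. Counts of *Gzmd*, *Gzme*, *Gzmf* and *Gzmg* are therefore uncertain among themselves, to an extent that was not tested.

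Upstream sequence is shown for *Gzmb* and for the 4 cluster genes with reads in several groups, because the level of *Gzmf* varied with those of *Gzmc* and *Gzmd* across samples. The pair *Gzmc* and *Gzmd* did not pass that test. Each line is the 250 bases before the RefSeq start (GRCm38.p6), read 5′ to 3′ on the minus strand of chromosome 14. Capitals mark matches on either strand to 4 short motifs, AP-1 (TGANTCA), the NFAT core (TGGAAA), a nuclear receptor half-site (AGGTCA) and RUNX (TGTGGT), none of which overlap in these 5 windows.
Gzmb, chr14:56262335-56262584: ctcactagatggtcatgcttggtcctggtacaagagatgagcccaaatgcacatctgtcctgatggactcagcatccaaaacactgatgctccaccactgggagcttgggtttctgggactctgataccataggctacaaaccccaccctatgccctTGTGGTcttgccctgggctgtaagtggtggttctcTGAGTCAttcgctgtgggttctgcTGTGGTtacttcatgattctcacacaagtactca
Gzmc, chr14:56234658-56234907: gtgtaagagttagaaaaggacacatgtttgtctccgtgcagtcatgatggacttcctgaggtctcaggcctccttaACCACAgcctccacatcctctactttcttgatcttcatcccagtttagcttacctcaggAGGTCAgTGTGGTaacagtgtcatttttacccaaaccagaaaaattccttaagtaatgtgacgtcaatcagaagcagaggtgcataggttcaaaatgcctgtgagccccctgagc
Gzmd, chr14:56132594-56132843: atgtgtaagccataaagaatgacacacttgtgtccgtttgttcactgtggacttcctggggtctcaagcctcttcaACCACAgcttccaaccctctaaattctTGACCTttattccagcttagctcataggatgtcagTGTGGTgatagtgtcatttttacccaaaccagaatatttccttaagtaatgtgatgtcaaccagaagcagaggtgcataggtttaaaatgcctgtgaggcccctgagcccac
Gzme, chr14:56120626-56120875: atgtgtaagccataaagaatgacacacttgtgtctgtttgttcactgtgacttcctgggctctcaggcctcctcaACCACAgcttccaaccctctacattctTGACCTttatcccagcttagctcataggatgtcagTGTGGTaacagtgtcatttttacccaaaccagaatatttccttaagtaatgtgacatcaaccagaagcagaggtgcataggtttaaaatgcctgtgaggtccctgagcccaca
Gzmf, chr14:56211408-56211657: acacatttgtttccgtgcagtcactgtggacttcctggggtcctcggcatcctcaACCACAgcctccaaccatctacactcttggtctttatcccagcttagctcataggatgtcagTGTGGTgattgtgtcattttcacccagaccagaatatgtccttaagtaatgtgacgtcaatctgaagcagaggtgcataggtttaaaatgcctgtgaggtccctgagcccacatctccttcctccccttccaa
The RUNX motif was found 2 times in each of the 5 windows, and 14.05% of 32851 mouse promoter windows of the same length held it at least once. The nuclear receptor half-site was found 1 time each before *Gzmc*, *Gzmd* and *Gzme*, against 14.02% of all windows, and was not in the windows of *Gzmb* and *Gzmf*. The AP-1 motif was in the *Gzmb* window alone among the 5, 1 time, against 6.75% of all windows, and the NFAT core (18.6% of all windows) in none of them. *Gzmd* and *Gzme* were 94.8% identical over these bases, *Gzmc* and *Gzmd* 80.5%, *Gzmd* and *Gzmf* 74.5%, and *Gzmb* and *Gzmd* 44.98%. A match says only that these letters are there.

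**Figure D1:**
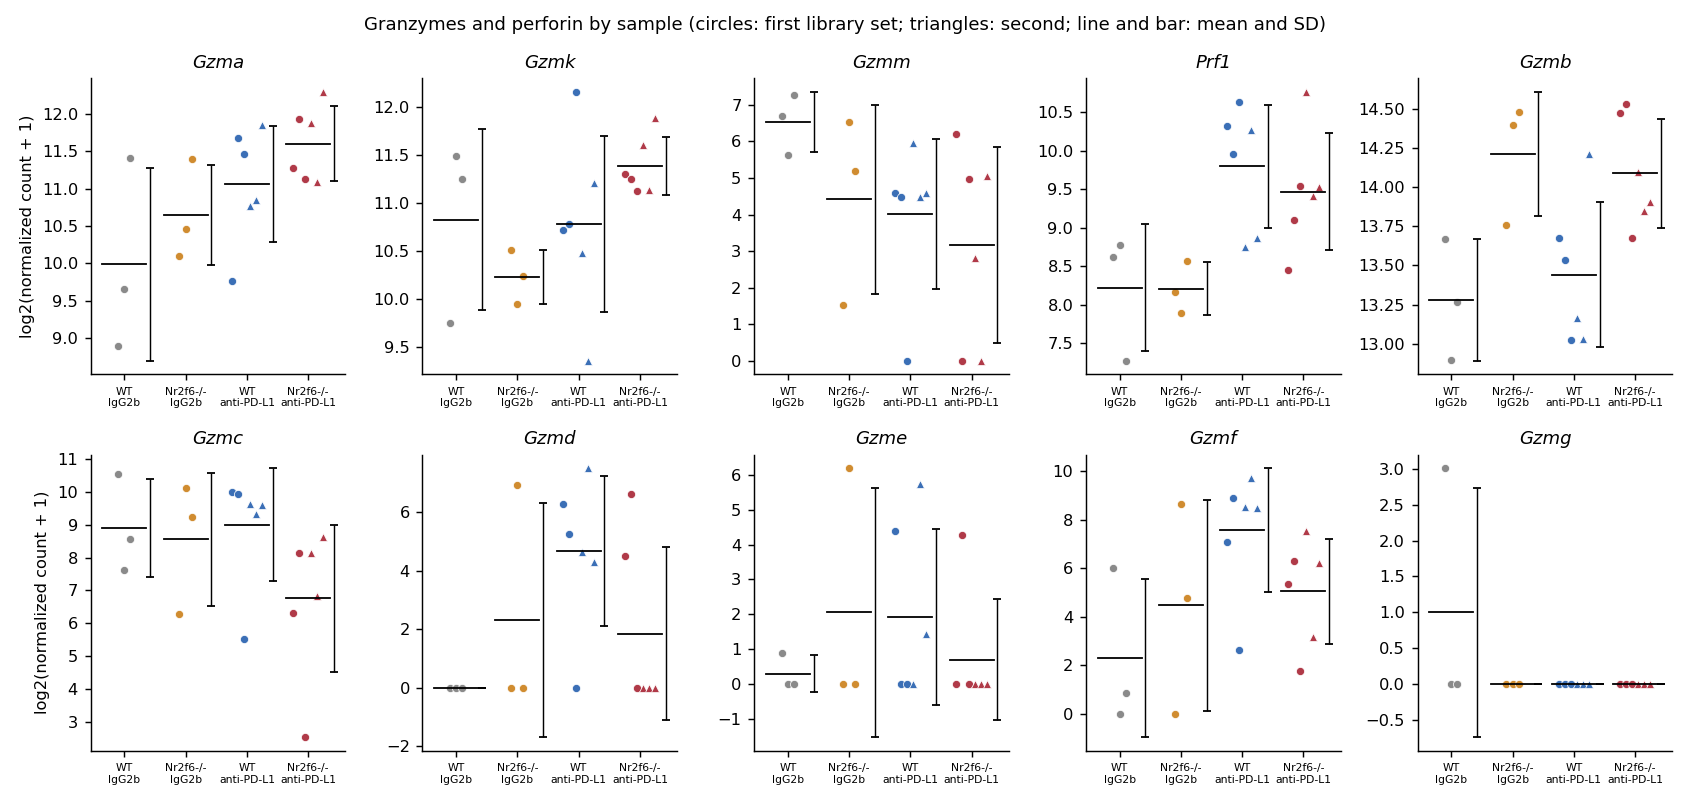
Each panel shows 1 gene in the 18 samples on the log2(normalized count + 1) scale, with a point per sample, the group mean as a line and the SD as a bar beside it. *Gzmb* is high in every sample (7623 to 23685 normalized counts), whereas *Gzmd*, *Gzme* and *Gzmf* run from 0 to far higher values within the same groups, and *Gzmg* has reads in a single sample.

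Of the 10 genes, 8 had a mean of at least 10 normalized counts and were tested; *Gzme* and *Gzmg* did not. The test was limma on log2(normalized count + 1) over all 18 samples, with p-values adjusted over 11992 genes, and fold changes below are on that scale, which understates the change of genes that are low throughout and, where some samples are near 0, can also exceed the ratio of the group means. None of the 8 passed an adjusted p of 0.05 in any of the 7 comparisons. By comparison, limma called 0.175% of all genes by genotype under anti-PD-L1, 0% by genotype under IgG2b, 0.242% by anti-PD-L1 in wild-type, 0.325% by anti-PD-L1 in *Nr2f6*-/-, 0.617% for the combination (*Nr2f6*-/- with anti-PD-L1) against wild-type IgG2b, 0.459% for NR2F6 loss alone against anti-PD-L1 alone and 0% for the interaction. At an unadjusted p under 0.05 the same 7 comparisons held 2, 1, 4, 3, 5, 2 and 1 of the 8 genes, against 9.73%, 5.35%, 7.24%, 9.7%, 9.04%, 11.2% and 4.97% of all genes. On the recovered reads edgeR called none of the 8 in any comparison. DESeq2 called *Gzmd* in the 4 comparisons that turn on the wild-type IgG2b group with its 0 reads, and *Prf1* in 1 other, and both are given with their genes below.

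*Prf1*, the gene of the pore-forming protein, had lower mean levels in both IgG2b groups than in both anti-PD-L1 groups. Its normalized counts were 153, 393 and 437 in wild-type IgG2b and 237, 285 and 380 in *Nr2f6*-/- IgG2b samples. With anti-PD-L1 they ran from 430 over a median of 1115 to 1587 in wild-type and from 349 over 711 to 1741 in *Nr2f6*-/- mice. All 3 *Nr2f6*-/- IgG2b samples were thus below all 6 wild-type anti-PD-L1 samples, while wild-type IgG2b overlapped with wild-type anti-PD-L1 by 1 value on each side.
The fitted log2 difference with anti-PD-L1 was 1.58 ± 0.47 (SE; 2.99-fold; limma adjusted p = 0.236) in wild-type and 1.26 ± 0.47 (2.39-fold; adjusted p = 0.326) in *Nr2f6*-/- mice. The difference between these treatment effects was -0.32 ± 0.66 (adjusted p = 0.990, limma). In the first library set alone, which holds all IgG2b samples, the treatment differences were 2.09 and 0.82 (limma adjusted p = 0.0759 and 0.601) and the difference between them -1.26 (limma adjusted p = 0.753). Between the single manipulations, *Nr2f6*-/- IgG2b against wild-type anti-PD-L1, *Prf1* was 3.01-fold lower (log2 -1.59 ± 0.47; limma adjusted p = 0.140), and DESeq2 called it (log2 -1.73, adjusted p = 0.0202; 2.39% of 11736 genes called) where edgeR did not (-1.74, adjusted p = 0.154). It was the 1 gene of the 8 without overlap in this comparison, where 5.36% of all genes did not overlap. The macrophage sums given above were higher in the IgG2b groups, where *Prf1* was lower, and their part in this difference was not tested.
By genotype *Prf1* differed by -0.01 ± 0.54 under IgG2b (95% confidence interval -1.12 to 1.10, limma adjusted p = 1) and by -0.33 ± 0.38 under anti-PD-L1 (interval -1.12 to 0.45, limma adjusted p = 0.828) on the log2 scale. Under anti-PD-L1 the library sets went opposite ways. In the first set the *Nr2f6*-/- samples were at 349, 549 and 744 and the wild-type samples at 997, 1282 and 1587, with no overlap (log2 -1.28, limma adjusted p = 0.310). In the second set the *Nr2f6*-/- samples were at 684, 739 and 1741 and the wild-type samples at 430, 465 and 1232 (log2 0.61, limma adjusted p = 0.803). The difference between the sets was not tested.

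*Gzmb*, which encodes the caspase-like granzyme B, had the smallest unadjusted p of the 8 genes by genotype with either antibody. Under IgG2b its normalized counts were 13825, 21592 and 22816 in *Nr2f6*-/- and 7623, 9873 and 13046 in wild-type samples, so that the groups did not overlap. It was the 1 of the 8 genes to do so, in a comparison where 14.2% of all genes did not overlap. The fitted difference was 1.91-fold (log2 0.93 ± 0.28, 95% confidence interval 0.36 to 1.50, limma adjusted p = 0.695; unadjusted p = 0.00232, limma).
Under anti-PD-L1 *Gzmb* ran from 13066 over a median of 16405 to 23685 in *Nr2f6*-/- and from 8346 over 10518 to 18977 in wild-type samples. These groups overlapped through 1 wild-type sample, replicate 6 at 18977; the other 5 wild-type samples were below every *Nr2f6*-/- sample. The fitted difference was 1.57-fold (log2 0.65 ± 0.20, interval 0.24 to 1.05, limma adjusted p = 0.225), and it was 0.82 in the first and 0.48 in the second library set (limma adjusted p = 0.268 and 0.792).
With anti-PD-L1 the *Gzmb* mean differed by 0.16 ± 0.24 on the log2 scale in wild-type and by -0.12 ± 0.24 in *Nr2f6*-/- mice (limma adjusted p = 0.937 and 0.920). In order of mean level the groups were *Nr2f6*-/- IgG2b at 19411 ± 4876 (SD, n = 3), *Nr2f6*-/- anti-PD-L1 at 17840 ± 4402 (n = 6), wild-type anti-PD-L1 at 11631 ± 4085 (n = 6) and wild-type IgG2b at 10181 ± 2724 (n = 3), and within each genotype the 2 neighbours differed by less than 1 SD. The combination was 1.75-fold above wild-type IgG2b without overlap (log2 0.81 ± 0.24, limma adjusted p = 0.141; 6.17% of all genes did not overlap) with its lowest sample at 13066 and the highest wild-type sample at 13046, and *Nr2f6*-/- IgG2b was 1.71-fold above wild-type anti-PD-L1 (log2 0.77 ± 0.24, limma adjusted p = 0.182).

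Granzyme B is known mainly from CD8+ cells, so *Cd8a*, their co-receptor gene, is given beside it. *Cd8a* had 8179 ± 128 (SD, n = 3), 10373 ± 2234 (n = 3), 9337 ± 2912 (n = 6) and 13161 ± 2262 (n = 6) normalized counts in wild-type IgG2b, *Nr2f6*-/- IgG2b, wild-type anti-PD-L1 and *Nr2f6*-/- anti-PD-L1 samples. After subtracting *Cd8a* on the log2 scale in each sample, the genotype difference of *Gzmb* was 0.61 under IgG2b in place of 0.93 and 0.11 under anti-PD-L1 in place of 0.65. The same subtraction under anti-PD-L1 left -0.00 for *Gzma* and 0.06 for *Gzmk*. It moved *Prf1*, *Gzmc*, *Gzmd*, *Gzmf* and *Gzmm* further below 0, to -0.87, -2.78, -3.35, -3.05 and -1.39. The part of the CD8+ share in these differences was not tested. The log2 ratio of *Cd8a* to *Cd4* was 0.89 ± 0.33 (SD, n = 3), 1.16 ± 1.04 (n = 3), 1.15 ± 1.23 (n = 6) and 1.81 ± 0.73 (n = 6) in the same order. Its differences did not pass an exact two-sided permutation test after adjustment over 6 comparisons, the nearest being the combination against wild-type IgG2b (0.93, exact p = 0.0476, adjusted 0.286). For the comparison of 3 with 3 samples the smallest p this test allows is 0.10.

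**Figure D2:**
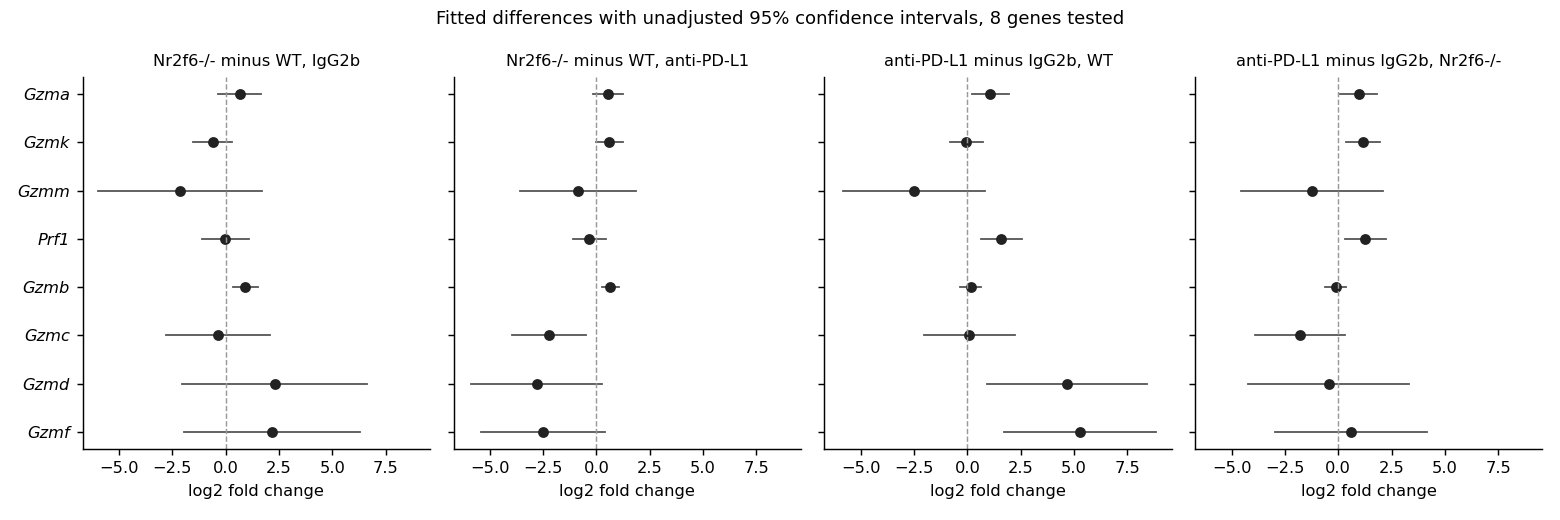
Fitted log2 fold changes of the 8 genes tested, with a point for the estimate and a line for the unadjusted 95% confidence interval, in 4 comparisons side by side. By genotype *Gzmb* lies to the right of 0 with both antibodies, and with anti-PD-L1 *Prf1* and *Gzma* lie to the right of 0 in both genotypes; intervals for *Gzmd* and *Gzmf* span several log2 units.

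*Gzma*, the tryptase-like granzyme A, was lowest in wild-type IgG2b samples, with 475, 805 and 2717 normalized counts. *Nr2f6*-/- IgG2b samples had 1097, 1405 and 2685. With anti-PD-L1 the counts ran from 866 over 2339 to 3711 in wild-type and from 2189 over 3127 to 5028 in *Nr2f6*-/- mice. The order of the means was thus wild-type IgG2b, *Nr2f6*-/- IgG2b, wild-type anti-PD-L1 and *Nr2f6*-/- anti-PD-L1, and each group overlapped with the next.
In the combination *Gzma* was 3.06-fold above wild-type IgG2b (log2 1.62 ± 0.42, interval 0.75 to 2.48, limma adjusted p = 0.0778). This value stood close to the threshold and passed it without wild-type IgG2b replicate 3, the sample at 2717 (log2 2.33, limma adjusted p = 0.0129), or without wild-type anti-PD-L1 replicate 1, which enters through the shared spread alone (adjusted p = 0.0466, limma). It also passed with a pseudocount of 10 (adjusted p = 0.0436, limma) and with the replicate number as a block (adjusted p = 0.0479, limma), although same-numbered samples did not deviate together. It did not pass with edgeR (log2 1.31, edgeR adjusted p = 0.307) or DESeq2 (log2 1.29, DESeq2 adjusted p = 0.299). Nor did it pass in the first library set alone (log2 1.46, limma adjusted p = 0.342). With anti-PD-L1 the *Gzma* difference was 1.08 ± 0.42 in wild-type (limma adjusted p = 0.553) and 0.95 ± 0.42 in *Nr2f6*-/- mice (adjusted p = 0.456), and by genotype it was 0.66 ± 0.49 under IgG2b and 0.54 ± 0.35 under anti-PD-L1 (limma adjusted p = 0.989 and 0.651). Relative to *Cd8a*, the genotype difference under anti-PD-L1 was -0.00.

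*Gzmk*, the tryptase on the same stretch of chromosome 13, followed another order. *Nr2f6*-/- IgG2b was the group with the lowest mean, with 982, 1204 and 1452 normalized counts, and all 6 *Nr2f6*-/- anti-PD-L1 samples were above them, from 2227 over a median of 2470 to 3785. Wild-type samples overlapped with both of these groups, with 856, 2433 and 2863 under IgG2b and 653 over 1722 to 4562 under anti-PD-L1.
In *Nr2f6*-/- mice *Gzmk* was 2.22-fold higher with anti-PD-L1 (log2 1.15 ± 0.39, limma adjusted p = 0.266), as the 1 of the 8 genes without overlap where 5.12% of all genes did not overlap. In wild-type mice the difference was -0.04 ± 0.39 (limma adjusted p = 0.995). The interaction itself was 1.20 ± 0.55 (limma adjusted p = 0.974; unadjusted p = 0.0363, limma), so a difference between the genotypes in the response of *Gzmk* was not shown. Under anti-PD-L1 the genotype difference was 0.60 ± 0.31 over all samples (limma adjusted p = 0.552), and it was 0.00 in the first and 1.20 in the second library set.

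*Gzmm*, the methionine-cutting granzyme, was low throughout. It had 49.0, 102 and 153 normalized counts in wild-type IgG2b and 1.90, 35.4 and 91.4 in *Nr2f6*-/- IgG2b samples, and from 0 over 22.2 to 61.2 in wild-type and 0 over 18.2 to 72.5 in *Nr2f6*-/- anti-PD-L1 samples. Wild-type IgG2b was the highest group, and each other group overlapped with it. The combination differed from it by -3.36 ± 1.63 on the log2 scale (limma adjusted p = 0.542). Markers of natural killer cells, where granzyme M is best known, summed to 858 to 995 normalized counts in wild-type IgG2b, 279 to 1730 in *Nr2f6*-/- IgG2b, 506 to 1698 in wild-type anti-PD-L1 and 1326 to 2814 in *Nr2f6*-/- anti-PD-L1 samples. Of the 5 NK markers (*Ncr1*, *Klrb1c*, *Klra8*, *Klre1*, *Klri2*), the defining *Ncr1* was at 0 in all 6 IgG2b samples, in 5 of 6 wild-type and in 3 of 6 *Nr2f6*-/- anti-PD-L1 samples, and its highest value was 83.4. In the combination against wild-type IgG2b, 3 of these markers were tested, 2 of them above 0 and 1 below. *Klri2* passed the test (log2 4.27 ± 0.97, limma adjusted p = 0.0337). *Klrb1c* went the other way without passing, with means of 50.2 in wild-type IgG2b and 7.31 in the combination. The means of *Klre1*, which did not pass, were 854 and 1320. The sort for CD3 would remove NK cells, which lack CD3, and the part of any that remained in the levels of *Gzmm* or of the other genes was not tested.

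The rodent granzymes of chromosome 14 covered wide ranges within groups. *Gzmc*, for granzyme C, had 196, 377 and 1480 normalized counts in wild-type IgG2b and 77.1, 605 and 1113 in *Nr2f6*-/- IgG2b samples, and ran from 44.96 over 776 to 1017 in wild-type and from 4.86 over 195 to 392 in *Nr2f6*-/- anti-PD-L1 samples. Under anti-PD-L1, 5 of 6 wild-type samples were thus above every *Nr2f6*-/- sample, and replicate 3 at 44.96 was not. The fitted difference was 4.70-fold lower in *Nr2f6*-/- mice (log2 -2.23 ± 0.85, interval -3.97 to -0.49, limma adjusted p = 0.360), -2.82 in the first and -1.65 in the second library set. It was -1.39 without *Nr2f6*-/- replicate 3, the sample at 4.86, and -2.93 without wild-type replicate 3. Under IgG2b it was -0.36 ± 1.20 (limma adjusted p = 1). The test of all 8 genes by genotype under anti-PD-L1 found none whose groups did not overlap, against 0.592% of all genes.

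*Gzmf* ran over a wider range still. It had 0, 0.829 and 63.3 normalized counts in wild-type IgG2b and 0, 26.0 and 400 in *Nr2f6*-/- IgG2b samples, and from 5.23 over 363 to 834 in wild-type and 2.43 over 56.1 to 182 in *Nr2f6*-/- anti-PD-L1 samples. With anti-PD-L1 it was 38.5-fold higher in wild-type mice (log2 5.27 ± 1.74, limma adjusted p = 0.363), a value that depends on the added count of 1 because 2 of 3 IgG2b samples were at or under the limit of 3 reads. The log2 difference was 4.08 with both edgeR and DESeq2 and 3.92 in the first library set alone. With single samples left out it ran from 4.12, without wild-type IgG2b replicate 2, to 7.12, without wild-type IgG2b replicate 1, and wild-type IgG2b replicate 3 and wild-type anti-PD-L1 replicate 3 moved it by less than these. In *Nr2f6*-/- mice the same difference was 0.58 ± 1.74 (limma adjusted p = 0.953), and it was -1.15 with edgeR, -1.16 with DESeq2 and -1.65 without *Nr2f6*-/- IgG2b replicate 1. No gene of the 8 was free of overlap with anti-PD-L1 in wild-type mice, where 4.54% of all genes were. Under anti-PD-L1 the genotype difference was -2.50 ± 1.42 (limma adjusted p = 0.602; -1.85 without *Nr2f6*-/- and -3.49 without wild-type replicate 3), and in the second library set all 3 *Nr2f6*-/- samples (8.10, 72.2 and 182) were below all 3 wild-type samples (358, 368 and 834).

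*Gzmd* was at 0 in all 3 wild-type IgG2b samples. It was read in 1 of 3 *Nr2f6*-/- IgG2b samples (replicate 2 at 120 normalized counts), in 5 of 6 wild-type anti-PD-L1 samples (median 30.4, highest 180) and in 2 of 6 *Nr2f6*-/- anti-PD-L1 samples (21.4 and 97.2). Against the limit of 3 reads per sample in the group at 0, the mean was at least 17.9-fold higher in wild-type with anti-PD-L1, at least 12.8-fold higher in *Nr2f6*-/- with IgG2b, through its 1 sample, and at least 6.32-fold higher in *Nr2f6*-/- with anti-PD-L1. Without the highest sample of the group, a setting chosen after seeing the data, the bound was 9.97-fold in wild-type with anti-PD-L1 (without replicate 5) and 1.37-fold in *Nr2f6*-/- with anti-PD-L1 (without replicate 2). DESeq2 called *Gzmd* in these 3 comparisons, where it called 0.801%, 0.75% and 1.51% of all genes, and in the interaction, where it called 0.648%. Neither limma (log2 4.66 ± 1.84, adjusted p = 0.553 with anti-PD-L1 in wild-type mice) nor edgeR did so, and a fitted value against a group of zeros is no estimate of size.
*Gzme* followed *Gzmd*. It was above 3 reads in *Nr2f6*-/- IgG2b replicate 2 (71.6 normalized counts), in wild-type anti-PD-L1 replicates 1 and 5 (19.8 and 51.8) and in *Nr2f6*-/- anti-PD-L1 replicate 2 (18.2), and all 4 of these samples also held *Gzmd*, with 120, 76.2, 180 and 97.2. *Gzmg* had reads in 1 sample of 18, wild-type IgG2b replicate 1 with 7.03. The 9 other genes of the locus found in the table, *Gzmn* and the cathepsin G, chymase and mast cell protease genes beside it, together reached at most 13.6 normalized counts in any sample.

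Across the 18 samples, 28 pairs of the 8 genes were correlated on the log2 scale, with permutation tests (100000 permutations) and adjustment over the 28 pairs. The permutations ignored the groups, so differences between group means enter these p-values. The closest pair was *Gzmd* and *Gzmf* (Pearson r = 0.73, permutation p = 0.00097, adjusted 0.0272; Spearman rho = 0.77, permutation p = 0.00036, adjusted 0.0101). Without the 2 samples farthest in *Gzmd* r was 0.65, within the wild-type anti-PD-L1 group it was 0.88, within the *Nr2f6*-/- anti-PD-L1 group 0.30, and in the first and second library set 0.80 and 0.79. The shared run at their transcript ends applies to this pair. *Gzmc* and *Gzmf*, which share at most 10 bases there, gave r = 0.65 (permutation p = 0.00232, adjusted 0.0325) and rho = 0.70 (permutation p = 0.00199, adjusted 0.0279). For them r was 0.65 without the 2 samples farthest in *Gzmc*, 0.90 and 0.86 within the wild-type and *Nr2f6*-/- anti-PD-L1 groups, and 0.62 and 0.90 in the library sets. *Gzmc* and *Gzmd* did not pass (r = 0.45, permutation p = 0.0579, adjusted 0.270; rho = 0.52, permutation p = 0.0310, adjusted 0.144). Their r was 0.86 and 0.21 within the wild-type and *Nr2f6*-/- anti-PD-L1 groups. *Gzmb*, which lies next to *Gzmc* in the genome, gave r = 0.08 with *Gzmc* (permutation p = 0.757, adjusted 0.848; rho = 0.01, permutation p = 0.980, adjusted 0.987) over all samples. For this pair r was 0.48 and 0.47 within the wild-type and *Nr2f6*-/- anti-PD-L1 groups, 0.58 after centring each group on its mean, and 0.18 and -0.36 in the library sets. The last pair past the threshold was *Gzmm* and *Prf1*, by rank alone (rho = -0.65, permutation p = 0.00478, adjusted 0.0446; r = -0.47, permutation p = 0.0477, adjusted 0.267). Its r was -0.65 and -0.20 within the anti-PD-L1 groups, -0.38 without the 2 samples farthest in *Gzmm* and -0.37 after centring each group on its mean. With the same centring r was 0.60 for *Gzmd* and *Gzmf*, 0.86 for *Gzmc* and *Gzmf* and 0.49 for *Gzmc* and *Gzmd*.

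**Figure D3:**
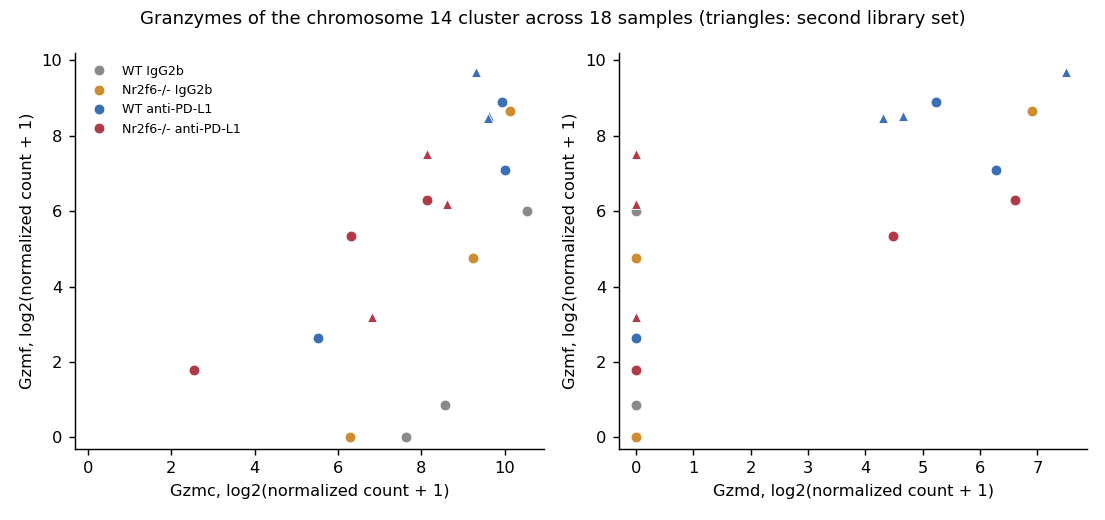
Each point is 1 of 18 samples on log2(normalized count + 1) axes, with *Gzmc* (left) or *Gzmd* (right) against *Gzmf*. Samples high in *Gzmc* tend to be high in *Gzmf* (r = 0.65), and the samples at 0 for *Gzmd* spread along the left edge from 0 upwards in *Gzmf*.

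Among all other genes tested, those with levels most like each granzyme over the 18 samples were listed by Pearson r, as a description with no test. For *Gzmb* they were *Ptpn22* (r = 0.82), a phosphatase that restrains T cell receptor signalling, *Serpinb9* (0.80), the inhibitor that shields cells from their own granzyme B, and *Adcy7* (0.78), an adenylate cyclase. For *Gzmk* they included *Ankrd44* (0.78) and *Eomes* (0.74), a T-box factor of effector and memory CD8+ cells. *Prf1* was closest to the histone gene *Hist1h2ai* (0.87), *Gm9843* (0.78) and the tubulin gene *Tubb4b* (0.77). *Gzma* was closest to *Actr3b* (0.85), *Rpa2* (0.78) and the kinase gene *Ptk2b* (0.77), and *Gzmc* to *Pdha1* (0.85), the heat shock gene *Hspa1a* (0.85) and *1700056E22Rik* (0.80), which also stood near *Gzmf* (0.75) after *Itfg3* and *Gmds* (both 0.81). *Gzmd* was near *Hsd17b7* (0.73), *Pmf1* (0.72) and *Cox15* (0.71), and *Gzmm* near *Clec4a2* (0.79), *Ptpmt1* (0.77) and *Plekha8* (0.76). The points share depth and size factors, and each list was picked as the highest of 11984 values.

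The genes differed in their spread within groups. The SD within groups of *Gzmb* was 0.40 on the log2 scale, against a median of 0.27 for genes of like level, and that of *Prf1* 0.74 against 0.58. For *Gzma* it was 0.78 against 0.37, above 98.9% of genes of like level, for *Gzmk* 0.69 against 0.38 and for *Gzmc* 1.93 against 0.66. *Gzmm* was at 2.27 against 2.48.

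**Figure D4:**
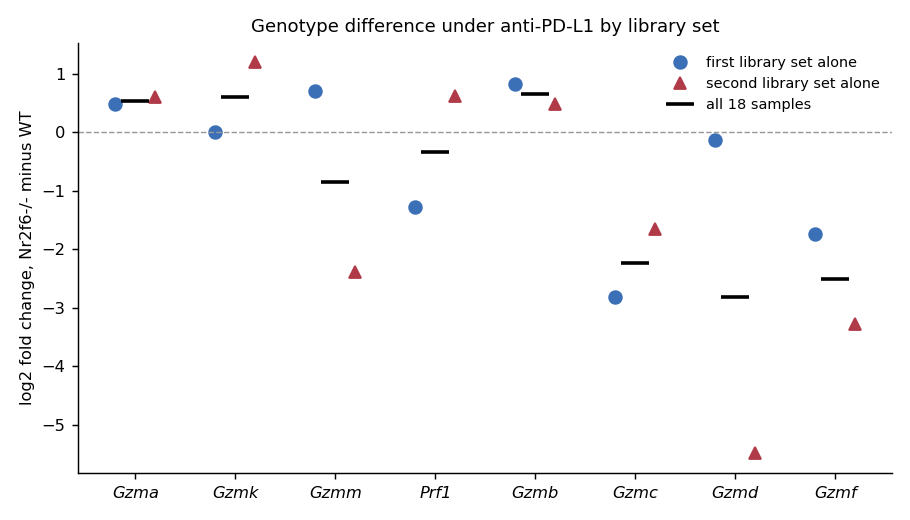
Log2 fold change of *Nr2f6*-/- against wild-type anti-PD-L1 samples for the 8 genes, from the first library set (circles), the second (triangles) and all samples (bars). *Gzma*, *Gzmb*, *Gzmc* and *Gzmf* have the same sign in both sets, *Prf1* goes from -1.28 to 0.61, *Gzmm* from 0.70 to -2.39, *Gzmk* from 0.00 to 1.20 and *Gzmd* from -0.13 to -5.49.

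Beyond the family, a list of 12 granule genes was taken, all of them tested. It holds the storage proteoglycan *Srgn*, the processing proteases *Ctsc* and *Ctsl*, their inhibitor *Cst7*, the granule membrane genes *Nkg7* and *Lamp1*, the release genes *Rab27a*, *Unc13d*, *Stx11* and *Stxbp2*, and the protease inhibitors *Serpinb9* and *Serpinb6b*. At an unadjusted limma p under 0.05 the 7 comparisons, in the order given above, held 2, 2, 4, 3, 3, 1 and 1 of the 12. The shares of all genes were 9.73%, 5.35%, 7.24%, 9.7%, 9.04%, 11.2% and 4.97%. Limma called 1 of the 12 higher in the combination against wild-type IgG2b, where it called 0.617% of all genes. It also called 1 higher in *Nr2f6*-/- IgG2b against wild-type anti-PD-L1, where it called 0.459%, and none in the 5 other comparisons.
The first was *Nkg7*, needed for granule release. It had 23884, 24306 and 27329 normalized counts in wild-type IgG2b and 29631, 30222 and 34736 in *Nr2f6*-/- IgG2b samples, from 21434 over 32980 to 53296 in wild-type and from 46406 over 55682 to 62649 in *Nr2f6*-/- anti-PD-L1 samples. All 6 samples of the combination were above all 6 IgG2b samples, and *Nkg7* rose 2.15-fold against wild-type IgG2b (log2 1.10 ± 0.21, limma adjusted p = 0.00920). Of all genes, 6.17% did not overlap between the combination and wild-type IgG2b, and 5.12% between the combination and *Nr2f6*-/- IgG2b. The mean of *Cd8a* was 8179 in wild-type IgG2b and 13161 in the combination. The 7 macrophage markers summed to 11588 to 14266 and to 815 to 2200 in these groups. The part of the cell mixture in the *Nkg7* difference was not tested.
The second was *Srgn*. It had 20466, 21800 and 27280 normalized counts in *Nr2f6*-/- IgG2b, 11755, 13092 and 15333 in wild-type IgG2b, 9740 over 12344 to 16211 in wild-type anti-PD-L1 and 10847 over 15743 to 22002 in *Nr2f6*-/- anti-PD-L1 samples. It was 1.89-fold higher in *Nr2f6*-/- IgG2b than in wild-type anti-PD-L1 samples (log2 0.92 ± 0.20, limma adjusted p = 0.0366). Serglycin is also made by macrophages, whose marker *Lyz2* was higher in the same comparison (log2 2.08 ± 0.39, limma adjusted p = 0.00623), and its part was not tested.
The median log2 difference over the 12 was 0.31 by genotype under anti-PD-L1, 0.19 by genotype under IgG2b and 0.35 for the combination, beside -0.00, -0.06 and -0.12 over all genes. With anti-PD-L1 it was 0.03 in wild-type mice, where 6 of the 12 were above 0, and 0.17 in *Nr2f6*-/- mice, beside -0.10 and -0.04 over all genes. It was 0.17 for NR2F6 loss alone against anti-PD-L1 alone and 0.10 for the interaction, beside 0.04 and 0.06. Of 6 transcription factors of effector T cells (*Tbx21*, *Eomes*, *Runx3*, *Prdm1*, *Zeb2*, *Id2*), limma called none in any comparison. At an unadjusted p under 0.05 the 7 comparisons held 1, 1, 1, 2, 2, 1 and 0 of them, against 9.73%, 5.35%, 7.24%, 9.7%, 9.04%, 11.2% and 4.97% of all genes.

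**Figure D5:**
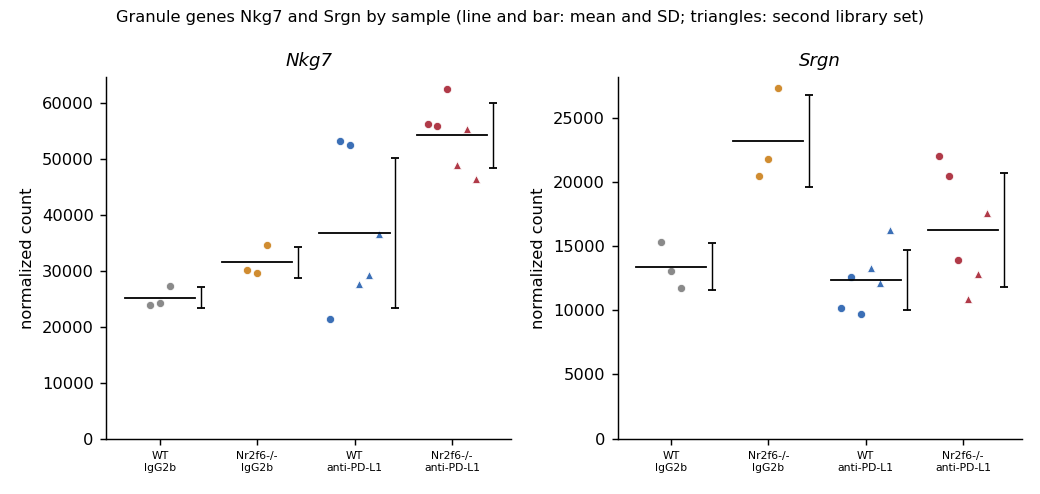
Normalized counts of *Nkg7* (left) and *Srgn* (right) in each sample, with the group mean as a line and the SD as a bar. The 6 *Nr2f6*-/- anti-PD-L1 samples lie between 46406 and 62649 for *Nkg7*, above all IgG2b samples, and the 3 *Nr2f6*-/- IgG2b samples lie highest on average for *Srgn* at 23182 ± 3611 (SD, n = 3).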

How the data were processed

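CD3+ TILs of 18 B16-OVA tumor samples in 4 groups were sequenced with the QuantSeq 3′ kit, and groups were taken from the sample titles. Per the authors, Cutadapt and Trimmomatic were used for trimming, STAR followed by Bowtie2 for mapping on mm10 (primary alignments only for multi-mapped reads) and HTSeq-count for counting. Versions, annotation and strand setting are not given in the sources used here. The deposited signal values are counts that the authors scaled by a size factor, which is constant within a sample. Dividing each column by its step returned whole reads for 100% of values (tolerance 0.01; size factors 0.823 to 1.22). No 2 columns were identical (0 of 153 pairs).

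Testing was restricted to the 11992 of 37236 genes that averaged 10 or more normalized counts, and was done with limma 3.58.1 (R 4.3.3; eBayes with trend) on log2(normalized count + 1), in 1 model of the 4 group means over 18 samples, two-sided, with Benjamini-Hochberg adjustment and a threshold of 0.05. Because the values are normalized, count tests (edgeR 4.0.16 and DESeq2 1.42.0 on the recovered reads) were alternatives, beside a pseudocount of 10, no filter, scaling to the same total, the library set as covariate or each set alone, the replicate number as a block and each sample left out in turn. The tests were checked on simulated counts. Named were the 10 genes, genes of the lists that passed the test or define a cell type, and per gene tested the 3 most correlated genes, of which some, and some marker genes, are not reported here. Genes and lists were chosen with earlier results of these data known. Positions are from GENCODE M21, upstream sequences from RefSeq (GRCm38.p6), compared with Biopython 1.88.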

Additional observations from a re-analysis of the deposited data

Results flagged for a closer look

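In each group of 6 samples, and for each gene with reads there, the highest and the lowest value were compared with the nearest other value. Of 22 group and measure combinations searched, 3 held a sample far from the rest. The rule marks about 1 in 20 by chance where values are normally distributed. Unlogged counts with many zeros need not keep that rate, so the number marked cannot be set against it. *Prf1* in *Nr2f6*-/- anti-PD-L1 replicate 4 was at 1741 normalized counts, where the other 5 samples of its group ran from 349 to 744. *Gzmd* in *Nr2f6*-/- anti-PD-L1 replicate 2 was at 97.2, where 4 others were at 0 and the next highest was at 21.4. *Gzme* in the same sample was at 18.2, where the other 5 were at 0, so that any value above 0 would have been marked. The ends of *Gzmd* and *Gzme* share an identical run of 49 bases, and its part in these counts was not tested.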

How the results depend on the processing

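Over all settings other than leaving out a sample, 431 of 456 log2 differences of the 8 genes kept their direction and 25 changed it, none of them past the threshold; of 1008 with a sample left out, 30 did not keep it. The cause of each change was not tested. The number of the 8 genes called, 0 in all 7 comparisons with limma, was 1 with DESeq2 by genotype under IgG2b, with anti-PD-L1 in wild-type mice, in the combination and in the interaction (*Gzmd* each time), and 1 for NR2F6 loss alone against anti-PD-L1 alone (*Prf1*). In the combination it was also 1 with a pseudocount of 10 and with the replicate block (*Gzma*, limma adjusted p = 0.0436 and 0.0479), and from 0 to 1 when single samples were left out. Depth limits *Gzmd*, *Gzme*, *Gzmf*, *Gzmg* and *Gzmm*, with samples at or under 3 reads.

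Same-numbered samples did not deviate together over all genes tested (correlations of deviations -0.03 to 0.04). Whether they were handled together was not given in the sources used here. With the replicate block the log2 difference with anti-PD-L1 in wild-type mice was -0.72 for *Gzmc* and 0.10 for *Gzmk*, that in *Nr2f6*-/- mice was 0.058 for *Gzmd* and -0.38 for *Gzmf*, and NR2F6 loss alone against anti-PD-L1 alone gave 0.36 for *Gzmc*; the library set as a covariate gave the same 5 values.

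With the first library set alone, *Gzmm* by genotype under anti-PD-L1 was 0.70, *Gzmc* and *Gzmk* with anti-PD-L1 in wild-type mice were -0.43 and 0.39, *Gzmb* and *Gzmd* with anti-PD-L1 in *Nr2f6*-/- mice were 0.016 and 1.40, and *Gzmc* and the *Cd8a* to *Cd4* ratio for NR2F6 loss alone against anti-PD-L1 alone were 0.072 and -0.64. The second set alone gave 0.61 for *Prf1* by genotype. Scaling to the same total gave -0.0041 for *Gzmc* with anti-PD-L1 in wild-type mice. With edgeR and DESeq2, *Gzmk* with anti-PD-L1 in wild-type mice was 0.028 and 0.015, *Gzmf* in *Nr2f6*-/- mice was -1.15 and -1.16 (-0.083 with a pseudocount of 10), and the interaction of *Gzma* was 0.077 and 0.084.

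Leaving out single samples gave these ranges where a direction changed. By genotype under IgG2b they were -1.14 to 0.78 for *Gzmc*, 0 to 3.46 for *Gzmd*, -0.49 to 0.26 for *Prf1* and -0.23 to 0.81 for the *Cd8a* to *Cd4* ratio. With anti-PD-L1 in wild-type mice they were -0.030 to 0.36 for *Gzmb*, -0.56 to 0.90 for *Gzmc*, -0.58 to 0.29 for *Gzmk* and -0.11 to 0.56 for the ratio. In *Nr2f6*-/- mice they were -0.35 to 0.011 for *Gzmb*, -1.61 to 1.85 for *Gzmd* and -1.65 to 2.68 for *Gzmf*. For NR2F6 loss alone against anti-PD-L1 alone they were -1.23 to 0.69 for *Gzmc*, -0.66 to 1.84 for *Gzmm* and -0.50 to 0.54 for the ratio, and for the interaction -0.84 to 0.42 for *Gzma*, -0.17 to 2.32 for *Gzmm* and -0.60 to 0.16 for *Prf1*.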
